A study of Laguncularia racemosa with 22 samples.

Results

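Seedling leaves of the white mangrove, *Laguncularia racemosa*, which grows on warm tidal coasts, were compared between 12 h and 0 h in the seedlings that the sample titles mark with the letter Q. The comparison takes the 3 Q libraries of 12 h and the 3 Q libraries of 0 h, chosen by their titles, out of 22 leaf mRNA sequencing libraries in the series. The Q seedlings were 8 weeks old and labelled wild type, and their treatment labels read control at both times. The treatment text attached to every library, Q included, describes seedlings chilled at 0 °C and, in the last group, then kept for 24 h at 30 °C in the day and 28 °C in the night. It does not say whether the Q seedlings were chilled. The 3 libraries of P at 12 h and the 3 of P at 0 h, whose labels name freezing temperature with the same 8 weeks and wild type, serve here as a second, separate set. Seeds were collected at more than one place, and the labels do not tie P or Q to a place. Cold, time of day, light and handling therefore cannot be told apart in the Q change.

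In plants, chilling is known to set off a broad change of leaf transcripts. In Arabidopsis, transcription factors of the CBF family switch on genes for protective proteins, compatible solutes and membrane lipids, while genes for photosynthesis and growth are often turned down. Many leaf transcripts also cycle with the day through the circadian clock. The table of counts gives its genes as IDs in the style of the Trinity assembler and does not pair them with names, so no function is assigned to any gene below and the leaf label could not be checked against marker genes. Gene groups are formed by behaviour, and 4 genes are given by ID.

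The Q libraries of 12 h held 15447081 to 17340614 counts each, and those of 0 h held 17193717 to 17237924. Within a time, libraries lay on average 0.801 apart at 12 h and 0.81 apart at 0 h, as the root mean square difference per gene in log2 CPM (CPM is a count scaled to the size of its library). Libraries of different times lay 1.19 to 1.39 apart. Replicate 2 of 0 h stood nearer to the 12 h libraries than its fellows, at a mean distance of 1.21 against 1.37 for each of the others. Nothing in the labels says that the libraries of a time came from separate plants beyond extraction from each plant's leaves, so the p-values below measure the spread between these libraries.

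After 12 h, a large part of the Q leaf transcriptome differed from 0 h. Of 21694 genes tested, 3874 were higher, which is 17.9%, and 4320 were lower, which is 19.9%, together 8194 genes or 37.8% (edgeR's quasi-likelihood test, Benjamini-Hochberg adjusted p under 0.05). In 3681 of the 3874 higher genes (95.0%) every 12 h library exceeded every 0 h library, and in 4132 of the 4320 lower genes (95.6%) every 12 h library lay under every 0 h library. Over all genes tested, the times were free of overlap in the upward direction for 23% and in the downward direction for 24.8%. The median log2 change was 1.22 among the higher genes and -1.07 among the lower ones, with a median standard error of 0.20 and a median of -0.02 over all genes tested. Without replicate 2 of 0 h, the library nearest to 12 h, 7760 genes were called in place of 8194. Leaving out any other of these libraries left fewer, down to 7001 without replicate 1 of 0 h. The smallest change that passed was 0.23 on the log2 scale. With library totals in place of TMM scaling, 38.2% of the called genes were higher in place of 47.3%, and the median of all genes moved to -0.14, so small rises and falls hold only relative to that shift. The order of rises and falls turned round in other settings, with 4130 higher and 4062 lower under RLE scaling, 4350 and 4243 in DESeq2, and 4198 and 3972 from the Q libraries alone. It also turned round without replicate 1 of 12 h (3656 higher and 3490 lower) and without replicate 3 of 12 h (3816 and 3556), so these data do not show which direction was more frequent. In these bulk leaves, fewer cells of a type and less of an RNA per cell cannot be told apart.

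Among changes of at least 4-fold, rises outnumbered falls over all genes tested, but not among genes abundant in P at 0 h. Of the higher genes, 1190 rose at least 4-fold, 5.49% of the genes tested, and 288 rose at least 16-fold. Of the lower genes, 805 fell at least 4-fold, 3.71% of the genes tested, and 138 fell at least 16-fold. Genes were then sorted by their level in P at 0 h, which does not enter the Q change itself. Those under 1 CPM gave 624 rises and 234 falls of at least 4-fold, and those from 1 to 10 CPM gave 334 and 242. From 10 to 100 CPM there were 204 rises and 242 falls of at least 4-fold, and at 100 CPM or more 28 and 87. Genes under 1 CPM could enter the test through the groups where they were higher, so the excess of large rises there is partly fixed by the filter. Sorting by a 0 h level also tends to put rising genes into lower classes and falling genes into higher ones. The contrast between the classes is partly set by that, and sorting by the 12 h level was not done. Between 1.5-fold and 4-fold, with TMM scaling, falls were more numerous, with 842 rises and 1158 falls from 1.5 to 2-fold and 1071 rises and 1531 falls from 2 to 4-fold. The genes that rose at least 16-fold had a median of the group means of 2.53 CPM at 12 h and 0.0723 CPM at 0 h, and the genes that rose less than 1.5-fold had 59.2 CPM at 12 h and 44.1 CPM at 0 h. The genes that fell at least 16-fold stood at 0.0218 CPM at 12 h and 1.11 CPM at 0 h. Folds of such scarce genes rest on few counts, while 2 of the genes named below changed by more than 4-fold at high levels.

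**Figure D1:**
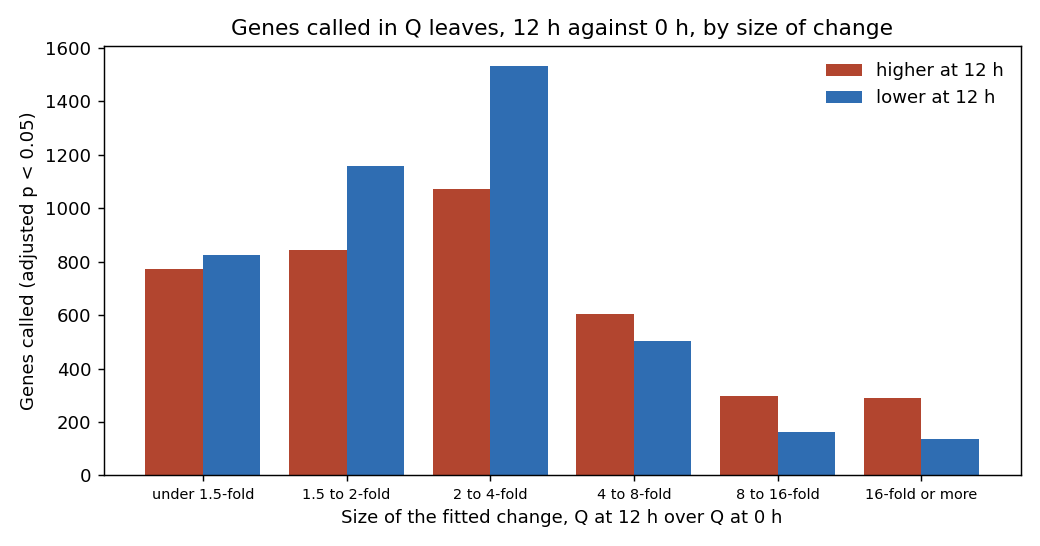
Number of genes called in Q leaves (vertical axis) by the size of the fitted change from 0 h to 12 h (horizontal axis), with red bars for genes higher at 12 h and blue bars for genes lower at 12 h. With TMM scaling, falls are more numerous from 1.5 to 4-fold (1158 and 1531 genes). Rises are more numerous at 4-fold and above, with 288 against 138 genes at 16-fold or more. The excess of large rises lies in genes under 10 CPM in P at 0 h, and sorting by a 0 h level partly sets this.

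TRINITY_DN6847_c0_g2 had the largest rise on the log2 scale under the rule for named genes. Its level was 34.2, 43.1 and 35.2 CPM in the 3 libraries of 12 h, against 0, 0 and 0.169 CPM in the 3 of 0 h. The times did not overlap, and the 0 h libraries held 3 counts in all against 1783 counts at 12 h. The ratio of 12 h to 0 h was 682, with a 95% interval of 233 to 3309 for counting error alone. The fitted log2 change was 9.23 with a standard error of 0.79 (adjusted p 7.97e-08 in edgeR). All 3 counts at 0 h came from replicate 3, and without that library, which leaves 0 h at 0, the fitted log2 change was 12.25, a value that depends on the fit and is no bound. A second assembled gene of the same Trinity cluster, which groups transcripts that share sequence, stood at 2.40 ± 0.381 CPM at 12 h and 0.624 ± 0.212 CPM at 0 h (SD, n = 3 each). With counts summed over the cluster the log2 change was 5.86 (adjusted p 3.14e-09 in edgeR).

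TRINITY_DN325_c0_g1 gained more CPM than any other gene that met the rule. It stood at 20380, 18230 and 20080 CPM at 12 h, against 1745, 2078 and 2622 CPM at 0 h. All 3 libraries of 12 h lay far above those of 0 h, and the gene moved to the 3rd highest mean level at 12 h, against the 29th at 0 h. It held 1.92% of the counts at 12 h and 0.227% at 0 h. The log2 change was 3.19 with a standard error of 0.27 (adjusted p 1.92e-08 in edgeR). A second tested gene of its cluster was at 2.08 ± 0.124 CPM at 12 h and 1.04 ± 0.166 CPM at 0 h (SD, n = 3 each) and did not pass the test (adjusted p 0.147 in edgeR).

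TRINITY_DN10002_c0_g1 had the largest fall on the log2 scale. It had 0 counts in each of the 3 libraries of 12 h, against 156, 93.2 and 55.1 CPM in the 3 of 0 h, from 2877, 1720 and 980 counts. The gene was thus clearly measured at 0 h in every library and not detected in any at 12 h. Against a floor of 3 counts over the 12 h group it was at least 1613-fold lower (adjusted p 2.15e-06 in edgeR). At 3 h in Q it was still at 93.9, 97.1 and 91.8 CPM, and at 36 h it had 0 counts in all 3 libraries. P had 0 counts in all 3 of its 12 h libraries and 125 ± 32.3 CPM at 0 h, where Q had 102 ± 51.2 CPM (SD, n = 3 each).

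TRINITY_DN30863_c0_g1 lost more CPM than any other gene that met the rule. It was at 89.7, 44.0 and 64.7 CPM at 12 h, against 4462, 3928 and 6930 CPM at 0 h. The times were far apart, and the gene stood 3176th by mean level at 12 h, against 4th at 0 h. The log2 change was -6.27 with a standard error of 0.37 (adjusted p 3.63e-10 in edgeR). Its share of the counts was 0.00647% at 12 h and 0.539% at 0 h.

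**Figure D2:**
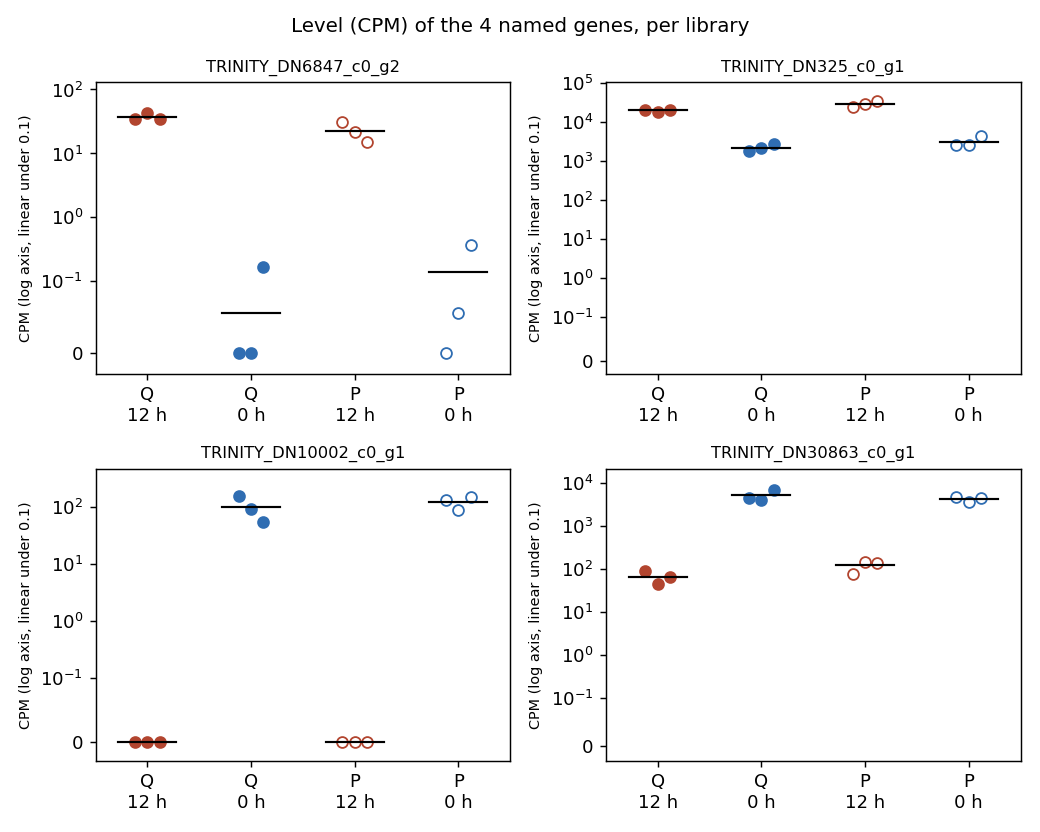
Level of the 4 named genes in CPM (vertical axes, log scale, linear under 0.1) in each library of Q at 12 h, Q at 0 h, P at 12 h and P at 0 h (horizontal axes); points are libraries, filled for Q and open for P, and lines are group means. In Q the rule for named genes requires that the 12 h and 0 h libraries do not overlap. In P, whose levels the rule did not use, they do not overlap for any of the 4 either. TRINITY_DN10002_c0_g1 lies at 0 in every 12 h library of both letters.

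The 4 genes had reached different points by 3 h in Q. The 3 h and 36 h values below are set against the same 0 h libraries as the 12 h change. TRINITY_DN325_c0_g1 averaged 2148 ± 442.5 CPM at 0 h, 10110 ± 2047 CPM at 3 h, 19560 ± 1166 CPM at 12 h and 8356 ± 575.6 CPM at 36 h (SD, n = 3 each). TRINITY_DN30863_c0_g1 averaged 5107 ± 1602 CPM at 0 h, 2403 ± 204.2 CPM at 3 h, 66.1 ± 22.9 CPM at 12 h and 48.8 ± 6.44 CPM at 36 h (SD, n = 3 each). Both passed the test at 3 h (edgeR adjusted p 1.63e-05 for the rising gene and 0.0232 for the falling one), where 9.72% of the genes tested passed. TRINITY_DN6847_c0_g2 was at 0.0562 ± 0.0974 CPM at 0 h, 1.05 ± 0.403 CPM at 3 h, 37.5 ± 4.88 CPM at 12 h and 19.1 ± 7.93 CPM at 36 h (SD, n = 3 each). It passed at 3 h as well (adjusted p 0.0135 in edgeR), and TRINITY_DN10002_c0_g1 did not (log2 change -0.11, standard error 0.37, adjusted p 0.916 in edgeR).

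The called genes carried much of the leaf's messenger RNA. The 3874 genes higher at 12 h held 44.39%, 44.30% and 44.38% of the counts in the 3 libraries of 12 h, against 20.17%, 23.37% and 20.65% in the 3 of 0 h. The 4320 genes lower at 12 h held 14.70%, 14.73% and 14.28% at 12 h, against 36.41%, 32.63% and 36.50% at 0 h. These genes were chosen on the same libraries, so the difference is a description and carries no test. On both shares the 12 h libraries agreed closely among themselves, and of the 0 h libraries replicate 2 lay nearest to them. Over all genes tested the mean distance within a time was alike, 0.801 at 12 h and 0.81 at 0 h. The P libraries shared the fit that set the filter, scaling and spread, but their levels do not enter the Q change itself. In P, the genes called higher in Q held 42.61% to 43.37% of the counts at 12 h and 22.43% to 24.12% at 0 h. Those called lower in Q held 15.62% to 17.25% at 12 h and 32.14% to 34.31% at 0 h in P.

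**Figure D3:**
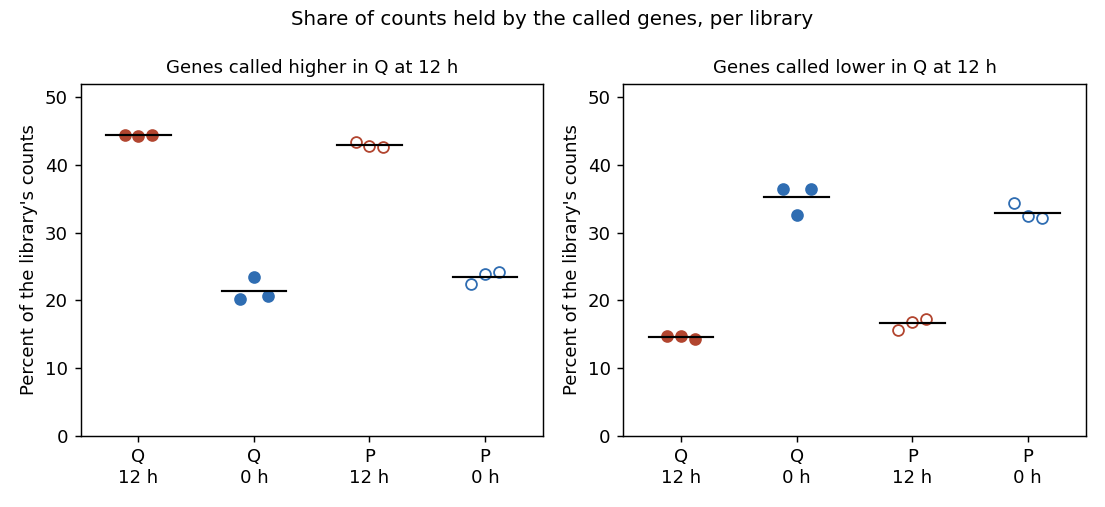
Percent of each library's counts (vertical axes) that fell in the genes called higher (left) and lower (right) in Q at 12 h, for libraries of Q at 12 h, Q at 0 h, P at 12 h and P at 0 h (horizontal axes); points are libraries, filled for Q and open for P, and lines are group means. The genes called higher hold about 44.4% in Q at 12 h and 20.2% to 23.4% in Q at 0 h. The P libraries lie at 42.6% to 43.4% and 22.4% to 24.1%. They shared the fit, but their levels do not enter the Q change.

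A small number of genes made up much of this shift. The 10 genes that gained the most CPM summed to 81898 CPM at 12 h and 27227 CPM at 0 h, and they accounted for 21.8% of the summed gain of the higher genes. The 100 with the largest gain accounted for 49.4%. The 10 genes that lost the most summed to 8247 CPM at 12 h and 40130 CPM at 0 h, 17.4% of the summed loss, and the 100 with the largest loss made up 45.4%. In P, 9 of the 10 gaining genes were called higher, where 15.5% of the genes tested were, and 10 of the 10 losing genes were called lower, where 16.6% were. Their log2 changes in P ran from 0.51 to 3.20 and from -5.41 to -1.25.

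The counts also became more concentrated in the most abundant transcripts. The 10 most abundant genes of each library held 12.59%, 11.83% and 12.42% of its counts at 12 h, against 8.89%, 8.88% and 8.49% at 0 h. The 100 most abundant held 27.9% ± 0.63 at 12 h and 24.8% ± 0.349 at 0 h (SD, n = 3 each). The groups did not overlap in either measure, and the two-sided exact permutation p was 0.1 for each, the smallest that 3 libraries against 3 allow. Adjusted over 5 such library measures it was 0.167. In P the top 10 held 13.0% ± 0.553 at 12 h and 9.33% ± 1.02 at 0 h (SD, n = 3 each). The number of genes at 1 CPM or more did not separate the times in Q, with 15919 ± 40.3 genes at 12 h and 15712 ± 402 at 0 h (SD, n = 3 each; exact permutation p 0.9).

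How often a gene was called depended on its abundance, taken from the 3 P libraries of 0 h, whose levels do not enter the Q change. Among the 1983 genes at 100 CPM or more there, 23.7% were higher and 34.6% were lower in Q at 12 h. Among the 8421 genes from 10 to 100 CPM, 21.3% were higher and 29.4% lower. From 1 to 10 CPM the shares were 17.6% and 17.5% of 5060 genes. Under 1 CPM, 11.6% of 6230 genes were higher and 4.37% were lower. The filter bears on that last class as on its large rises, and the other shares are those with TMM scaling. The median standard error was 0.87 there and 0.14 at 100 CPM or more, so smaller changes could be called among abundant genes. Classes by a 0 h level also favour falls at the high end and rises at the low end. Classes by the 12 h level were not formed.

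**Figure D4:**
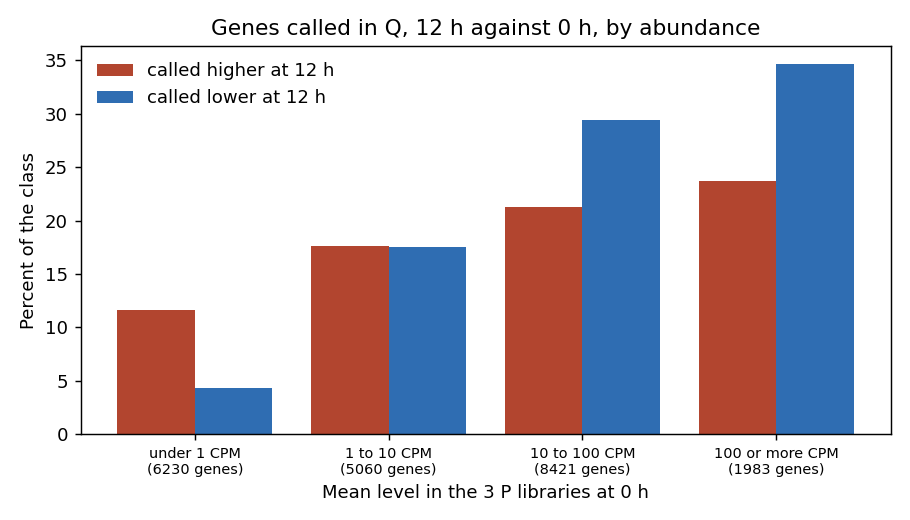
Percent of genes called higher (red) and lower (blue) in Q at 12 h against 0 h (vertical axis) in 4 classes of mean level in the 3 P libraries of 0 h (horizontal axis, with the number of genes). With TMM scaling, the share called lower exceeds the share called higher from 10 CPM upward, at 34.6% against 23.7% in the highest class. Below 1 CPM it lies under the share called higher. The classes are set by a 0 h level, which favours falls in the high classes and rises in the low ones.

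The most abundant leaf transcripts were rearranged in both directions. Of the 100 genes with the highest level in P at 0 h, 29 were higher, 41 were lower and 30 did not pass in Q at 12 h. Over all genes tested 17.9% were higher and 19.9% lower, and at 100 CPM or more 23.7% and 34.6%, to which the counts of these 100 lie near. Their log2 changes in Q ran from -6.82 to 3.27, with a median of -0.30. Choosing these genes by a 0 h level favours falls, so the lean of the median is partly fixed. As a set they held 24.2%, 23.5% and 24.2% of the counts in Q at 12 h, against 24.8%, 24.5% and 24.3% at 0 h. The rises and falls among these genes thus nearly balanced in the sum.

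Some genes went between no count in all libraries of a time and detection at the other, mostly at low levels. Of the 235 tested genes with 0 counts in all 3 libraries of 0 h, 70 were called higher at 12 h, where 17.9% of all genes tested were. Of the 162 with 0 counts in all 3 of 12 h, 43 were called lower, where 19.9% were. The 235 and the 162 include genes with 0 counts at both times in Q, which could not be called. The genes that were called entered the test through libraries where they were present, so the counts are a description. Most were scarce, with a median of 0.584 CPM at 12 h for the 70 and 0.51 CPM at 0 h for the 43. Against the floor, the largest of the 70 changes was at least 112-fold. At 5 CPM or more there were 3 of the 70 and 1 of the 43, which is TRINITY_DN10002_c0_g1. The 3 were picked out by value, and since no annotation goes with them their IDs are left out. In P, 33 of the 70 were called higher, where 15.5% of the genes tested were, and 15 of the 43 were called lower, where 16.6% were.

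At the other end, 3589 genes (16.5%) had a 95% interval of the fold change that lay within 1.5-fold in either direction, and 253 of them were called despite the small size. Within 2-fold lay the intervals of 7590 genes (35.0%). Of the 13500 genes that did not pass the test, 5529 had an interval within 2-fold. For the other 7971 the interval reached past 2-fold, so these libraries do not show whether they changed. The counts within 1.5-fold and 2-fold include genes with 0 counts in all 6 Q libraries compared. Such genes get an interval without width, so nothing shows that they were steady, and they were not counted apart.

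The P libraries were then read for the genes that Q had chosen. The letters share no library, but the same fit gave the filter and the spread of each gene for both. The genes called higher in Q had a median log2 change of 0.83 in P at 12 h, those called lower had -0.72, and all genes tested had -0.04. In P, 2438 of the 3874 Q rises were called higher (62.9% of the Q list and 72.4% of the P list), where 15.5% of all genes tested were. Likewise 2645 of the 4320 Q falls were called lower in P (61.2% of the Q list and 73.6% of the P list), where 16.6% were. The share did not climb steadily with the size of the Q change. It was 53.8% for rises under 1.5-fold, 69% from 2 to 4-fold and 60.4% at 16-fold or more. For falls it was 38.1% under 1.5-fold, 73.1% from 2 to 4-fold and 52.2% at 16-fold or more. The median change in P did grow with each size class, to 3.60 for the rises and -2.95 for the falls of 16-fold or more.

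Genes called in Q and not in P mostly leaned the same way in P. The 1430 such rises had a median log2 change of 1.13 in Q and 0.30 in P, and 1154 of them (80.7%) were above 0 in P, where 47.2% of all genes tested were. The 1666 such falls had -0.85 in Q and -0.27 in P, and 1434 of them (86.1%) were below 0 in P, where 52.4% were. The difference between the letters' changes, tested itself, passed for 1 of the 1430 and 1 of the 1666. Genes called in opposite directions numbered 15, of which 6 rose and 9 fell in Q. Leaving out replicate 2 or 3 of the 12 h libraries in Q made that count 8 or 32, and leaving out replicate 1 or 2 of the 0 h libraries made it 8 or 29.

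Over the whole table, the change from 0 to 12 h differed between Q and P in 10 genes, 0.0461% of those tested, the Q change lying above that of P in 4 and below it in 6. Before adjustment, 3094 genes had a p under 0.05, where 1085 would be expected with no difference at all. The largest of the 4 stood in Q at 273 ± 90.0 CPM at 12 h and 88.3 ± 17.9 CPM at 0 h, and in P at 72.0 ± 9.71 CPM at 12 h and 205 ± 72.6 CPM at 0 h (SD, n = 3 each). Its log2 change was 1.63 in Q and -1.51 in P (difference 3.14, standard error 0.47, adjusted p 0.0498 in edgeR). The clearest of the 6 fell in Q, with 228 ± 16.2 CPM at 12 h and 514 ± 68.0 CPM at 0 h, and stood in P at 478 ± 20.1 CPM at 12 h and 459 ± 52.9 CPM at 0 h (SD, n = 3 each; difference -1.23, standard error 0.18, adjusted p 0.0371 in edgeR). The other adjusted p-values were all 0.0498, just inside the threshold. These genes are described by their values and not by ID.

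That count of 10 depended on single libraries and on the tool. Among the Q libraries of 12 h, leaving out replicate 1, 2 or 3 gave 0, 0 or 31 genes. Among those of 0 h in Q the counts were 0, 230 and 0 in the same order. The P libraries of 12 h gave 388, 3 and 0, and the P libraries of 0 h gave 204, 0 and 0. DESeq2 called 729 genes. None of the 3 named genes with counts at 12 h was among the 10: the difference of the log2 changes was 2.03 for TRINITY_DN6847_c0_g2 (standard error 1.46), -0.02 for TRINITY_DN325_c0_g1 (standard error 0.35) and -1.13 for TRINITY_DN30863_c0_g1 (standard error 0.41), and edgeR's adjusted p in that order was 0.581, 0.999 and 0.206. TRINITY_DN10002_c0_g1 has 0 counts at 12 h in both letters and gives no such difference.

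Followed over the other times, the genes chosen at 12 h in Q stood between their 0 h and 12 h levels at 3 h and at 36 h in the median. In Q, the genes called higher had a median log2 change of 0.31 at 3 h, 1.22 at 12 h and 0.76 at 36 h, each against the same 0 h libraries, which were also used to choose the genes. Those called lower had -0.19 at 3 h, -1.07 at 12 h and -0.54 at 36 h. In P the same lists gave 0.11 at 3 h, 0.83 at 12 h and 0.73 at 36 h for the genes higher in Q, and -0.04, -0.72 and -0.57 for the genes lower in Q, each against the P libraries of 0 h. Over all genes tested the medians lay between -0.04 and -0.002 in these comparisons. The lists were chosen by their 12 h change in Q, which favours the largest medians at 12 h, so they show no peak by themselves. Of all genes tested in P, 15.5% were called higher and 16.6% lower at 12 h, and 19.1% and 17.7% at 36 h. In Q the shares were 17.9% and 19.9% at 12 h, and 14.1% and 15.3% at 36 h. P at 3 h and P at 36 h have 2 libraries each in the series as analysed here.

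**Figure D5:**
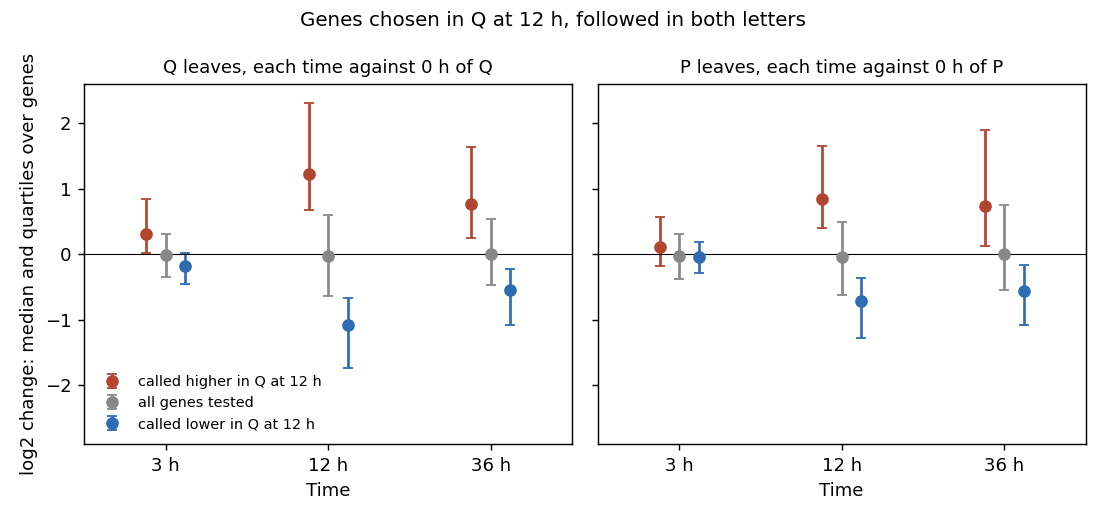
Log2 change against 0 h of the same letter (vertical axis) at 3, 12 and 36 h (horizontal axis) in Q (left) and P (right) for the genes called higher in Q at 12 h (red), all genes tested (grey) and the genes called lower in Q at 12 h (blue); points are medians over genes and bars are quartiles. The medians of both lists lie farthest from 0 at 12 h in each letter, at 1.22 and -1.07 in Q and 0.83 and -0.72 in P. The lists were chosen by the 12 h change in Q, which favours this.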

How the data were processed

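The authors deposited raw counts, 1 whole number per assembled gene and library, in 22 columns (0 other value columns), each matched to a sample by its title. FastQC, HISAT2 and featureCounts were used, per the submitters' processing notes; their settings and the alignment target are not given in the sources used here. Counts of near-identical genes may be split between IDs. Replicate pairs differed by a chi-square per gene of 18 to 31.2, where sampling noise alone gives about 1, so each library counted as 1 replicate.

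Of 54696 genes, filterByExpr with 8 groups and a minimum count of 10 left 21694. The test was edgeR 4.0.16 under R 4.3.3 (TMM scaling, robust quasi-likelihood fit of 8 group means over 22 libraries). Intervals use the log2 change divided by the root of F as standard error. A group at 0 was given a floor of 3 counts over the group; floors and counting intervals cover counting error only. In simulated Q libraries over 21035 genes, 79 of 100 genes changed 4-fold and 55 of 100 changed 2-fold were recovered, with 6 false calls. The changed genes were drawn from those at 1 CPM or more over the Q libraries compared, so these rates do not cover scarcer genes. The simulation changed only 100 genes of each size, while 8194 genes were called in the data. The adjusted threshold depends on the share of changed genes, so the recovery and the false calls do not carry over.

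Named genes are those with the largest log2 change and the largest change in mean CPM in each direction, among called genes averaging 5 CPM or more over the 6 libraries and no overlap between the times (2865 rising, 3402 falling). At most 2 IDs a direction are given. The comparison, rules and lists were chosen with earlier results of these data known. Lists of Arabidopsis symbols could not be applied. The alternatives included other scalings, filters and sets of libraries, DESeq2 1.42.0, thinned counts, replicate blocks, cluster sums, minimum folds and leaving out each library.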

Additional observations from a re-analysis of the deposited data

Results flagged for a closer look

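The change from 0 to 12 h differed between Q and P, by a test of the difference itself, in 10 genes. Of these, 9 were also called in Q at 12 h against 0 h, where 37.8% of the genes tested were. The test of the difference contains the Q change itself, so that overlap is partly built in. In 3 of the 10 the letters were called in opposite directions. In another, the level in Q was 20.4 ± 0.118 CPM at 12 h and 20.2 ± 2.03 CPM at 0 h, while P stood at 11.1 ± 0.923 CPM at 12 h and 28.4 ± 7.21 CPM at 0 h (SD, n = 3 each). Leaving out single libraries changed this count between 0 and 388. Groups of 3 libraries are too small for a check of single outlying libraries.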

How the results depend on the processing

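The number of genes called in Q at 12 h against 0 h was 8194, and it stayed within 1.5 times of that under 18 alternatives, with DESeq2 at 8593 and no filter at 7072. Without 1 library it ran from 7001 to 7760, with 3301 to 3816 higher and 3490 to 4063 lower. Higher genes were 47.3% of those called, 38.2% with library totals and 51.8% without replicate 3 of 12 h, so the order of rises and falls depends on the setting. Rises of at least 4-fold outnumbered falls of that size in all alternatives run, most narrowly with library totals (1078 and 943). A minimum of 2-fold left 4597 (2261 higher and 2336 lower), and a test against a 1.5-fold change left 4076 (1945 higher and 2131 lower); both ask for more by construction. The 4 named genes kept their direction and passed under all 20 alternatives run for each. The 2 alternatives below were added after seeing the data. The Q libraries alone gave 8170 genes, and leaving out genes at 0 in all libraries of a time gave 8081.

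The replicate block gave 8032 genes over all libraries and 7840 within each letter. No pairing by number was seen: deviations of same-numbered Q libraries correlated at -0.039, 0.012 and 0.022, and none matched its own number best. With 3 libraries at each time this check cannot settle whether the numbers pair them.

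For the difference between Q and P the 10 genes became 3 with RLE scaling, 232 with no filter, 40 with a stricter filter, 0 with the compared libraries alone, 2 with thinned counts, 1 and 6 with the replicate block over all libraries and within each letter, and 729 with DESeq2. Without 1 library the count ran from 0 to 388. The cause was not tested. Genes in opposite directions numbered 3 to 32 over the alternatives.

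The number of genes at 1 CPM or more was higher at 12 h by 206.33 in the mean. At 5 CPM the difference was -67.33, at 10 counts after thinning it was -91, and without replicate 3 of 0 h it was -24.83, so no direction holds. Without 1 library it ran from -24.83 to 339.67. The share in the 100 most abundant genes was higher by 3.08 percentage points, by 2.99 to 3.53 with 1000 or 10 genes, and by 2.74 to 3.36 without 1 library.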

Other observations

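Assembled genes of 1 Trinity cluster did not always move together. Of the genes tested in Q, 4943 fell in 2175 clusters with at least 1 other tested gene. In 1326 of these clusters at least 1 gene was called at 12 h against 0 h. Over all genes tested 37.8% were called, and a cluster of several genes has more chances to hold a called one. Called genes were higher in 528 clusters, lower in 607, and in both directions in 191. Among the 500 clusters with at least 2 called genes, 309 had calls in 1 direction and 191 (38.2%) in both. Rises were 47.3% of all called genes, so calls in both directions would be common among unrelated genes too. The share for unrelated genes was not computed. In 125 of those 191, the CPM summed over the cluster's tested genes differed by less than 1.5-fold between 12 h and 0 h, in 30 the sum was higher by more than that, and in 36 it was lower. The files do not say whether members of a cluster are gene copies, alleles or parts of 1 transcript.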
